A study of Homo sapiens with 64 samples.

Results

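The genes described here encode the nuclear-encoded subunits of respiratory complexes I to IV, the enzymes that pass electrons from NADH and succinate to oxygen in the inner mitochondrial membrane. They were chosen by name: 57 gene symbols were matched to the Ensembl identifiers of the count files, and 56 had a row among 54127 genes. These 56 genes comprised 34 subunits of complex I, 4 of complex II, 8 of complex III and 10 of complex IV. NDUFA7 was not analysed here.

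RNA sequencing of 64 samples covered 6 human colorectal cancer (CRC) cell lines grown as spheroids in non-adherent serum-free culture with EGF and bFGF. The lines were HT55 and SW948 (colon cancer subtype CCS1), RKO and SW48 (CCS2), and DLD1 and HCT15 (CCS3), so that each subtype was represented by a pair of lines. Cells of all 6 lines were labelled with CFSE, a dye that daughter cells share between them, and were sorted by FACS on day 6 into label-retaining cells (LRCs, CFSE high) and the remaining bulk (non-LRCs), with 4 samples of each per line. The other 16 samples were unsorted DLD1 cells, 4 in each of 4 groups: labelled with CFSE or not, on day 1 or later. The sample labels give the later time as day 5 and the study as day 6; it is called day 6 below. Unlabelled cells received DMSO in place of the dye. Each line is a single established culture, and the 4 samples of a group were described as biological quadruplicates.

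Complex I oxidises NADH and passes its electrons to ubiquinone, and complex II, which is also succinate dehydrogenase of the TCA cycle, feeds the same ubiquinone pool. Complex III transfers the electrons to cytochrome c, and complex IV uses them to reduce oxygen. Complexes I, III and IV also hold subunits encoded by mitochondrial DNA, so that their assembly draws on transcripts from both genomes, and nuclear respiratory factors are known to act on many of the nuclear genes.

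For elements that such factors are known to bind, the 300 bases around their start sites (250 before and 50 after the start, RefSeq, GRCh38.p14) were searched on both strands. A promoter was matched for 48 of the 56 genes. The letters searched were GCGC, any 2 bases and GCGC again for nuclear respiratory factor 1 (NRF1), CCGGAAG for ETS factors such as GABP, AAGATGGCG for YY1, and CCAAT; the first reads alike on both strands. The promoters of 5 genes to which the results below return are shown, with NRF1, ETS and YY1 matches in capitals: 4 genes lower in RKO LRCs, and SDHA, which held 4 NRF1 matches and was not called in RKO.
NDUFB10, chr16:1959288-1959587, plus strand: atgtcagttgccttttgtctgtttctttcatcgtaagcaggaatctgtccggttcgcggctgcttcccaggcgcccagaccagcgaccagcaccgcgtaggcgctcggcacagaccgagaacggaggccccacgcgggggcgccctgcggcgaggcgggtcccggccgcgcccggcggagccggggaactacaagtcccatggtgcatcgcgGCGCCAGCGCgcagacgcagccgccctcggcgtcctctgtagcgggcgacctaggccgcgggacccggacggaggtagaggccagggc
SDHB, chr1:17053983-17054282, minus strand: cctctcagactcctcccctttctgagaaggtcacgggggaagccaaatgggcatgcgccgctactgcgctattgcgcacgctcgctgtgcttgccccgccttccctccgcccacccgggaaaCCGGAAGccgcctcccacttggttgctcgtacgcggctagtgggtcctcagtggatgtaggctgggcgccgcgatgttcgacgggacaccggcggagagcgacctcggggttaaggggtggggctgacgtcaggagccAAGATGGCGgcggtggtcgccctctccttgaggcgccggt
SDHA, chr5:218070-218369, plus strand: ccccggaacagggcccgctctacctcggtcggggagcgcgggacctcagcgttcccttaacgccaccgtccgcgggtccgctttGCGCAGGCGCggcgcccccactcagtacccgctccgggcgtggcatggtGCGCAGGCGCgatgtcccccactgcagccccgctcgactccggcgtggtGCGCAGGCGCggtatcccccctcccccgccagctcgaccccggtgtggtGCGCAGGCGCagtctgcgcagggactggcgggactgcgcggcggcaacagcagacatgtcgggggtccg
UQCRC1, chr3:48609597-48609896, minus strand: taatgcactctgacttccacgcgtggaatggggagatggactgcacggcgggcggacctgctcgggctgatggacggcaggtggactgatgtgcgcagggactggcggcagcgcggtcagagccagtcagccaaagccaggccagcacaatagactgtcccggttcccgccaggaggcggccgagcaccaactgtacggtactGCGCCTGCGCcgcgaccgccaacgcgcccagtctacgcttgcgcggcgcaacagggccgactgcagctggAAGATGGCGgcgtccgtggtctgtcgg
COX8A, chr11:63974370-63974669, plus strand: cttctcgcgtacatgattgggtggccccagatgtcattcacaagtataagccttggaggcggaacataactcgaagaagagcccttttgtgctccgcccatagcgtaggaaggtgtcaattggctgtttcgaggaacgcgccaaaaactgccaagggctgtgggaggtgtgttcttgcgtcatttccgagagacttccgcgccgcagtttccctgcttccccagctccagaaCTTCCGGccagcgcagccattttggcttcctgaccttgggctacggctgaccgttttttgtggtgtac

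The NRF1 letters were present in 12 of the 48 promoters (25%), against 8.32% of 35116 human promoters of the same length. The ETS letters were present in 14 (29.2%, against 10.3% of all promoters) and the YY1 letters in 6 (12.5%, against 1.75%). CCAAT was found in 15 (31.2%), against 34.6% of all promoters. An NRF1 or ETS match was held by 25 of the 48 (52.1%), against 17.1% of all promoters. These are matches of letters in a window of fixed length, and no binding was measured.

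Reads assigned to genes numbered 12237225 to 20913455 per sample (median 15063858), and the 56 genes took 0.371 to 0.637% of them. Levels are given as CPM (the reads of a gene scaled to a common library size), normalised by the trimmed mean of M values (TMM) over all 64 samples, and a gene was called where the adjusted p of edgeR's quasi-likelihood test was under 0.05. The summed level of 10 epithelial and colonic markers was 220 to 335 CPM in RKO and 2722 to 18504 CPM in the other lines. Markers of blood, stromal and endothelial cells summed to 0.53 to 23.9 CPM. In bulk RNA, fewer cells of a kind and less RNA per cell cannot be told apart. In 23 of the 56 genes an exon overlaps that of another gene with a row, among them NDUFB2 with BRAF, NDUFB8 with HIF1AN and NDUFC1 with NAA15, and since the strand setting of the counting was not given in the sources used here, their counts are less certain. Near-identical copies held at least 5% of the counted reads on gene and copies for SDHA only (4 copies, 14.7%). Reads that align to several places were not counted on any gene. The share therefore cannot show how many reads were lost between a gene and its most similar copies, for SDHA or for the other genes.

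All 56 genes were expressed in every line. Among the non-LRC samples, 55 of the 56 genes differed between the 6 lines, where 98.3% of all genes tested did. The exception was NDUFB1, an accessory subunit of complex I, with means of 28.2 to 31.8 CPM over the lines and an adjusted p of 0.616. The median range over the line means was 0.97 on the log2 scale for the 56 genes, compared with 1.80 for all 15779 genes tested and 1.34 for the 9070 genes at or above the mean level of the lowest of the 56.

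SW948 had the highest mean for 32 of the 56 genes and RKO for 15. DLD1 had the highest mean for none and the lowest for 16, and SW48 had the lowest for 15. The widest range belonged to COX5B, a complex IV subunit. Its non-LRC levels were 332, 343, 311 and 329.7 CPM in SW948 and 68.3, 65.6, 69.9 and 66.7 CPM in DLD1, which is 4.85-fold apart. HT55 lay between them at 169.8 ± 25.6 CPM (SD, n = 4), and the means of RKO (77.7 ± 10.5), SW48 (81.4 ± 3.25) and HCT15 (85.4 ± 6.75) differed by less than the SD of RKO. NDUFS5, an accessory subunit of complex I, followed a different order, with 188 ± 30.5 CPM in RKO, 129 ± 11.1 in HT55, 104 ± 6.03 in SW948, 73.3 ± 15.1 in SW48, 53.5 ± 3.57 in HCT15 and 42.5 ± 1.99 in DLD1. COX8A, a small membrane-spanning subunit of complex IV, ranged from 61.1 ± 1.43 CPM in DLD1 to 222 ± 23.6 CPM in SW948.

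Per kilobase of the main transcript, mean non-LRC levels were highest for COX4I1 (352 CPM per kb), COX6B1 (323), COX7C (299.5) and UQCRH (292), and lowest for NDUFA9 (4.54), NDUFV3 (5.53) and NDUFC2 (5.68). Per kilobase of coding sequence COX7C was highest (997 CPM per kb) and NDUFV3 lowest (22.3), so the order depends on which length is used. NDUFB6 had no length in the annotation used.

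**Figure D1:**
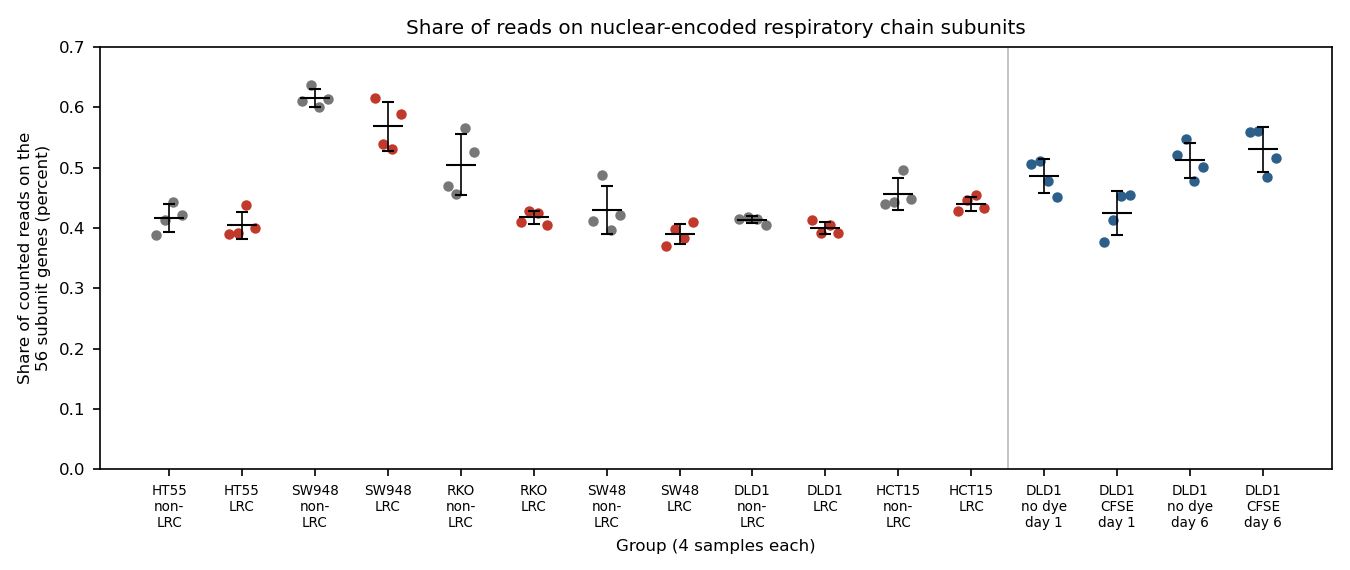
Share of counted reads on the 56 subunit genes (percent, vertical axis) in the 16 groups of 4 samples. Points are samples and bars the mean with its SD. The RKO LRC samples (0.418 ± 0.0111%) sit below the RKO non-LRC samples (0.504 ± 0.0506%), and the labelled DLD1 controls are lower on day 1 (0.425%) than on day 6 (0.530%).

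LRCs were compared with non-LRCs across the 6 lines with the line as a term. This asks whether slowly dividing and cycling cells differ in these transcripts on average over the lines. Samples were not paired by replicate number in this fit, although same-numbered samples deviated together in HT55, SW48, DLD1 and HCT15. The count with that pairing is not given here. 20 of the 56 genes were lower in LRCs and 0 were higher. An unadjusted p under 0.05 was reached by 38 of the 56, and by 5722 of all 16603 genes tested. By comparison, 22.9% of all genes were called, 10.7% as lower, and 16.6% were called lower among genes at least at the mean level of the lowest of the 56. The median log2 fold change was -0.11 for the 56 genes and 0.01 for all genes. The differences were small, and with a fold change of at least 0.25 on the log2 scale required as well, 0 genes remained called.

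By complex, 13 of 34 genes of complex I, 1 of 4 of complex II, 5 of 8 of complex III and 1 of 10 of complex IV were lower. Of the 6 core subunits of complex I measured here, which form the arm that oxidises NADH and carries electrons to ubiquinone, 5 were lower, and of its 28 accessory subunits 8 were. In complex III, all 4 of the larger subunits were lower: CYC1 and UQCRFS1, which carry the cytochrome c1 haem and the Rieske iron-sulphur cluster, and the core proteins UQCRC1 and UQCRC2.

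CYC1 had the smallest p of the 56 genes. Its RKO levels were 123, 126, 152 and 137 CPM in non-LRCs and 91.7, 90.8, 103 and 84.6 CPM in LRCs. In HCT15 they were 90.0, 93.0, 102 and 92.8 CPM in non-LRCs and 76.1, 81.0, 87.7 and 76.6 CPM in LRCs, and in DLD1 104, 98.8, 107 and 94.9 CPM against 94.6, 87.4, 89.1 and 90.8 CPM. The LRC samples did not overlap the non-LRC samples in these 3 lines. In HT55 (78.2 ± 11.4 against 72.3 ± 4.29 CPM), SW948 (216 ± 17.7 against 182 ± 22.2) and SW48 (144 ± 11.8 against 127 ± 12.4) the populations overlapped. Across the lines CYC1 had a log2 fold change of -0.25 (SE 0.0409, adjusted p 1.43e-05), and its 6 estimates ran from -0.11 in HT55 to -0.57 in RKO.

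UQCRC1, a core protein of complex III, was lower at -0.19 (SE 0.0337, adjusted p 6.49e-05). NDUFB8, an accessory subunit in the membrane arm of complex I, was lower at -0.22 (SE 0.0469, adjusted p 0.000471), and NDUFS6, an accessory subunit of its peripheral arm, at -0.19 (SE 0.0478, adjusted p 0.00327). SDHC, a membrane anchor of complex II, was lower at -0.14 (SE 0.0377, adjusted p 0.00495), although its estimate in SW48 was 0.14. COX7B was the complex IV subunit called, at -0.17 (SE 0.0436, adjusted p 0.00416). Counted over the 6 lines separately, 9 of the 56 genes had an estimate below 0 in all 6, 23 in 5, 16 in 4, 7 in 3 and 1 (UQCRB) in 2.

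No line other than RKO was left out in turn. Without RKO, 8 genes were lower (6.62% of all genes were), all of them among the 20: CYC1 at -0.19 (adjusted p 0.000902), UQCRC1 at -0.15 (adjusted p 0.00215), UQCRFS1, NDUFV1, NDUFB8, NDUFA10, SDHC and NDUFS8. Without replicate 2 or without replicate 3 of every group the count was 11.

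**Figure D2:**
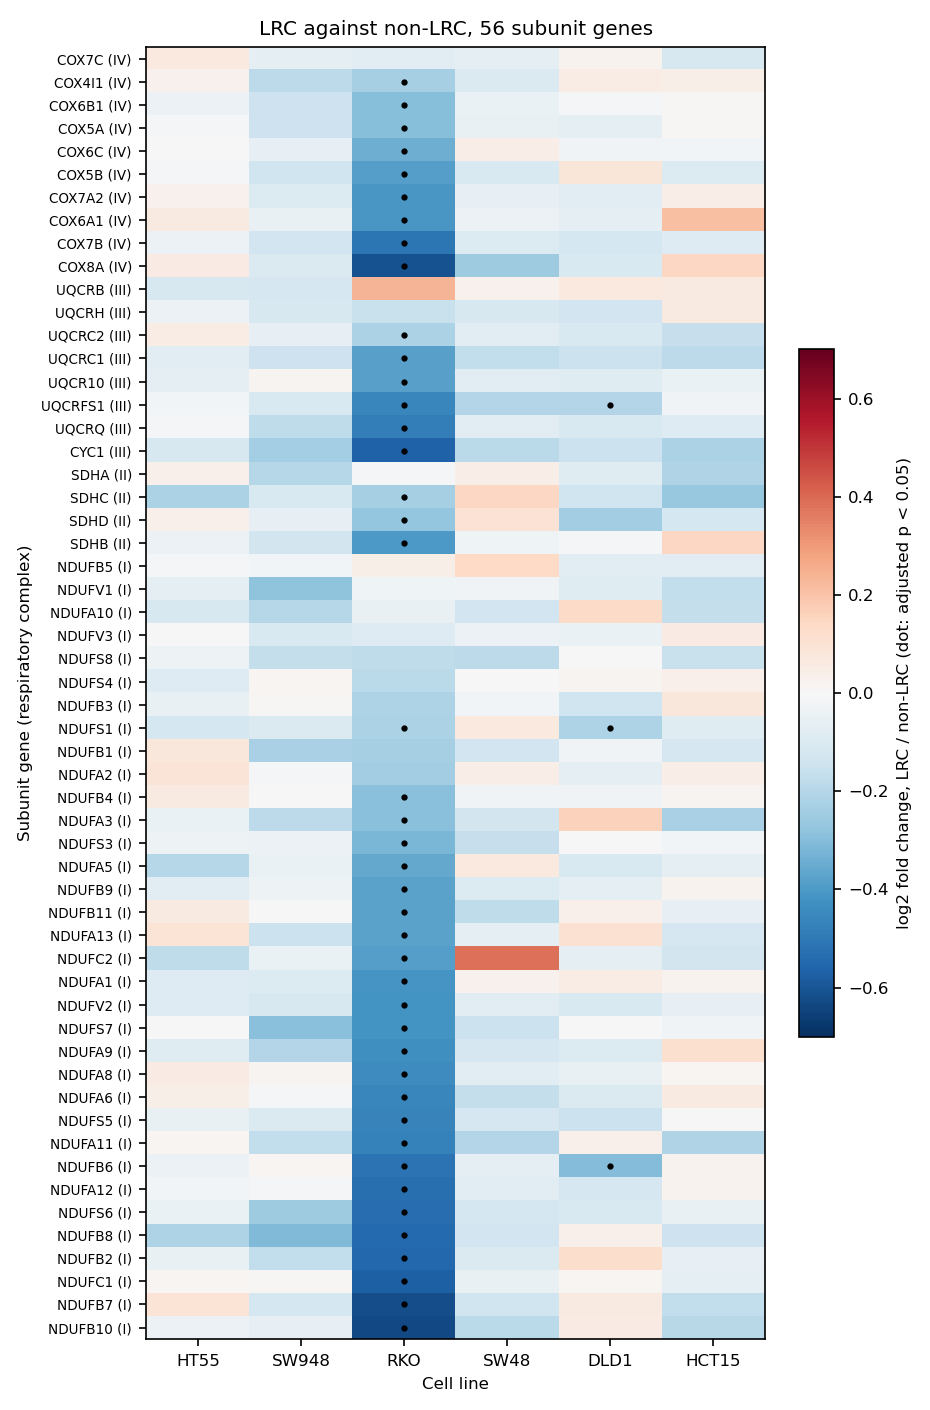
Log2 fold change of LRCs against non-LRCs (colour) for the 56 subunit genes (rows, with their complex) in the 6 cell lines (columns). A dot marks an adjusted p under 0.05: 43 genes in RKO, 3 in DLD1 and 0 in the other 4 lines.

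Within RKO, the line with the largest response, 43 of the 56 genes were lower in LRCs and 0 were higher, in 25 of 34 genes of complex I, 3 of 4 of complex II, 6 of 8 of complex III and 9 of 10 of complex IV. RKO also changed most as a whole, with 41.5% of all genes called, 21% as lower, and 26.9% called lower among genes at least at the mean level of the lowest of the 56. The median log2 fold change was -0.38 over the 56 genes and 0.01 over all genes. In 36 of the 56 genes every LRC sample was below every non-LRC sample, as it was in 17.8% of all genes.

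In complex I, NDUFB10 (ENSG00000140990, GRCh37 chr16:2009539-2011976), an accessory subunit of the membrane arm, had 48.2, 42.7, 55.2 and 46.7 CPM in RKO non-LRCs and 32.1, 32.9, 32.6 and 29.3 CPM in LRCs. The populations did not overlap, and the log2 fold change was -0.63 (SE 0.0904, adjusted p 6.69e-05). NDUFC1 (ENSG00000109390, GRCh37 chr4:140188034-140223705), another accessory subunit, had 54.9, 59.9, 63.6 and 67.7 CPM in non-LRCs and 37.2, 43.3, 43.98 and 43.98 CPM in LRCs, again without overlap (log2 fold change -0.57, SE 0.0845, adjusted p 8.74e-05). NDUFB7, also of the membrane arm, had 37.1, 39.5, 49.7 and 44.3 CPM against 30.6, 24.4, 33.6 and 25.2 CPM (-0.62, SE 0.115). By contrast NDUFV1, the core subunit that binds NADH, had 143, 141, 169 and 157 CPM against 177, 146, 148 and 138 CPM, with overlap, and was not called (-0.03, SE 0.0865, adjusted p 0.8). The accessory subunits as a class had a median of -0.40, with 21 of 28 lower, and the core subunits a median of -0.27, with 4 of 6 lower.

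In complex II, SDHB (ENSG00000117118, GRCh37 chr1:17345159-17380527), the iron-sulphur subunit of the catalytic head, had 94.3, 94.0, 114 and 107 CPM in non-LRCs and 74.5, 81.0, 77.7 and 81.5 CPM in LRCs. This was a log2 fold change of -0.40 (SE 0.0786, adjusted p 0.00083) without overlap of the populations. SDHC (ENSG00000143252, GRCh37 chr1:161284171-161332996), one of the membrane anchors, had 108, 106, 122 and 111 CPM against 93.4, 97.99, 99.0 and 96.9 CPM (log2 fold change -0.23, SE 0.0693, adjusted p 0.0137). SDHA, the flavoprotein that forms the head with SDHB, had 127, 122, 128 and 133 CPM in non-LRCs and 132, 122, 139 and 123 CPM in LRCs, so the 2 populations overlapped throughout (log2 fold change -0.01, SE 0.0676, adjusted p 0.926). The difference between SDHA and SDHB was not tested, and 14.7% of the counted reads on SDHA and its copies lay on the copies.

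In complex III, CYC1 had a log2 fold change of -0.57 (SE 0.0845, adjusted p 9.52e-05), from the levels given above. UQCRFS1, the Rieske protein, had 74.0, 87.8, 94.1 and 93.6 CPM in non-LRCs and 63.3, 64.4, 65.1 and 66.8 CPM in LRCs without overlap (log2 fold change -0.45, SE 0.08, adjusted p 0.000371). UQCRB, a small subunit near the quinone site, was the member with the highest positive estimate, with 269, 274, 332 and 319 CPM in non-LRCs and 354, 421, 305 and 354 CPM in LRCs. One LRC sample lay within the non-LRC range, and the estimate of 0.24 did not pass the threshold (SE 0.0984, adjusted p 0.0624). The other small subunits were mixed, with UQCRQ and UQCR10 lower and UQCRH not called.

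In complex IV, COX8A (ENSG00000176340, GRCh37 chr11:63742092-63744015) had 101, 105, 136 and 111 CPM in non-LRCs and 82.7, 69.0, 81.3 and 69.5 CPM in LRCs, without overlap (log2 fold change -0.61, SE 0.0979, adjusted p 0.000177). COX7B had 75.4, 72.9, 103 and 91.4 CPM against 57.1, 66.6, 64.1 and 58.2 CPM (log2 fold change -0.51, SE 0.105, adjusted p 0.00136). COX7C was the complex IV subunit not called, at -0.07 (SE 0.0973, adjusted p 0.572).

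The 43 called genes had log2 fold changes from -0.63 (NDUFB10) to -0.22 (UQCRC2), and those not called ran from -0.25 (NDUFA2) to 0.24 (UQCRB). The 13 genes that were not called in RKO were NDUFA2, NDUFA10, NDUFB1, NDUFB3, NDUFB5, NDUFS4, NDUFS8, NDUFV1, NDUFV3, SDHA, UQCRB, UQCRH and COX7C. Of the 48 genes with a promoter, 37 were lower in RKO LRCs and 11 were not called. NRF1 letters were found in 11 of the 37 and 1 of the 11, ETS letters in 13 and 1, YY1 letters in 5 and 1, and CCAAT in 10 and 5. Length moved with the differences in RKO. The 34 genes with a main transcript shorter than 1000 bases had a median log2 fold change of -0.38 and the 21 longer ones -0.30. All genes split in the same way had -0.11 and 0.02. Across the lines the 34 and 21 genes had medians of -0.108 and -0.106. For time in labelled DLD1 they had 0.45 and 0.34, against 0.11 and 0.03 for all genes. The share of reads on no feature was 7.04 ± 0.564% in RKO non-LRCs and 8.89 ± 1.16% in LRCs. The part of length or read composition in the result was not tested.

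**Figure D3:**
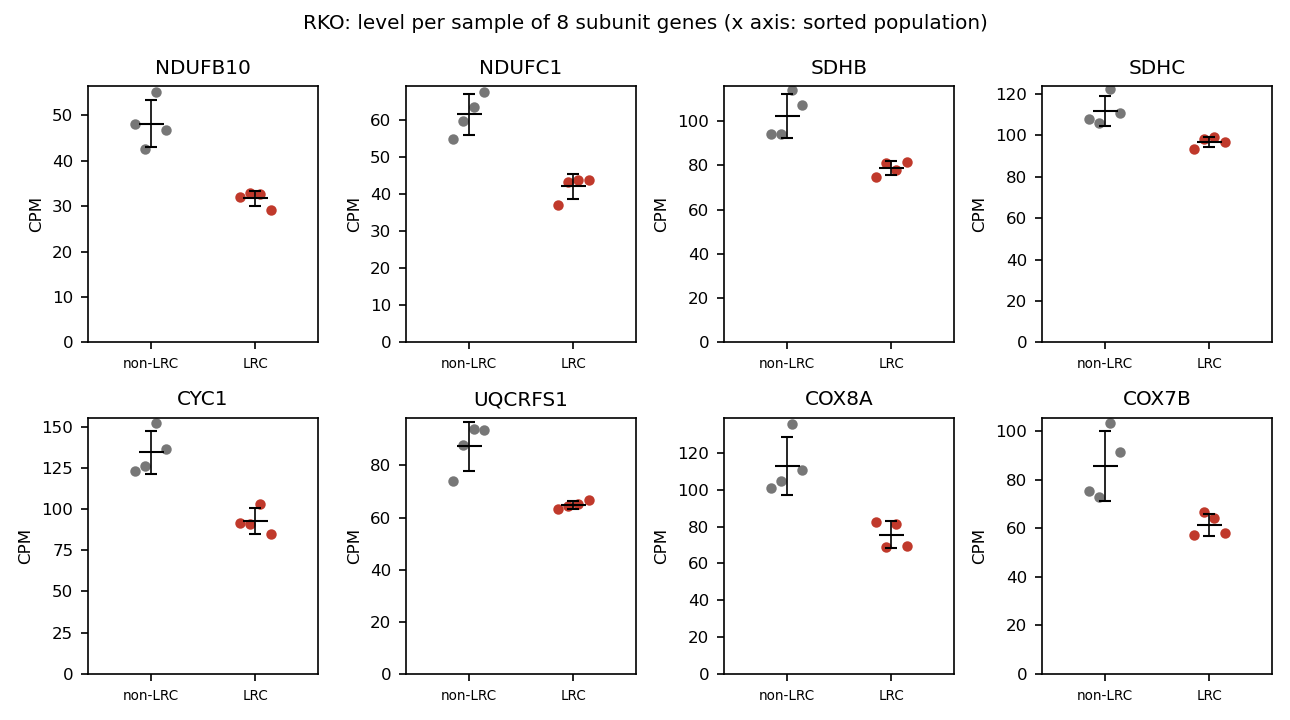
Level (CPM, vertical axis from 0) of 8 subunit genes in the 4 non-LRC and 4 LRC samples of RKO. Points are samples and the bar is the mean with its SD. The populations did not overlap in any of the 8 panels.

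In the other lines the differences were smaller. In HT55 and SW948, 0 of the 56 genes and 0% of all genes were called by edgeR's quasi-likelihood test. DESeq2 also called 0 of the 56 in both. An unadjusted p under 0.05 was reached in HT55 by 1 of the 56 and by 1005 of all 13391 genes. In SW948 it was reached by 8 of the 56 and by 2350 of all 13674 genes. The share was smaller for the 56 in both lines. In SW48 0 of the 56 were called (2 at an unadjusted p under 0.05, and 0 by DESeq2), where 0.796% of all genes were. Of all 13196 genes, 1728 had an unadjusted p under 0.05, a larger share than the 2 of 56. The median log2 fold changes of the 56 genes were -0.04 in HT55, -0.11 in SW948 and -0.08 in SW48. All LRC samples were below all non-LRC samples for 0 genes in HT55 (1.49% of all genes), for NDUFA10, NDUFB8 and NDUFS7 in SW948 (2.16%) and for UQCRFS1 in SW48 (3.44%). NDUFC2 in SW48 was the gene that went the other way, with 5.57, 6.42, 5.91 and 5.44 CPM in non-LRCs and 7.82, 7.14, 8.11 and 7.52 CPM in LRCs. Its populations did not overlap, and it was not called. The share of all genes with every LRC sample above every non-LRC sample was not counted.

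In DLD1 3 of the 56 genes were lower, where 14.6% of all genes were called, 7.89% as lower, and 12 had every LRC sample below every non-LRC sample (12.1% of all genes). NDUFS1, the largest core subunit of complex I, had 148, 141, 136 and 139 CPM in non-LRCs and 127, 127, 115 and 113 CPM in LRCs (log2 fold change -0.22, SE 0.0535, adjusted p 0.0224). UQCRFS1 had 73.5, 67.9, 65.1 and 67.2 CPM against 63.3, 56.9, 57.9 and 58.04 CPM (-0.20, SE 0.0554, adjusted p 0.033). NDUFB6, an accessory subunit, had 30.8, 34.6, 32.9 and 25.04 CPM against 25.2, 24.9, 24.9 and 24.4 CPM (-0.30, SE 0.0915, adjusted p 0.0472), and 1 non-LRC sample lay within the LRC range. Same-numbered DLD1 samples deviated together, and with the replicate number as a block 11 genes were called, 10 of them lower (16.6% of all genes were lower, near the share of these 10 among the 56): these 3, SDHC, SDHD, CYC1, UQCRC1, UQCRC2, UQCRH and NDUFS5. NDUFA10 was then higher at 0.13 (adjusted p 0.0358). Leaving out single replicates changed the count in DLD1, to 0 genes without replicate 1, 1 without replicate 2, 0 without replicate 3 and 1 without replicate 4.

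In HCT15 0 of the 56 genes were called by edgeR (6 at an unadjusted p under 0.05, 1 by DESeq2), where 0.977% of all genes were. Of all 14017 genes, 2415 had an unadjusted p under 0.05, a larger share than the 6 of 56. In 6 of the 56 every LRC sample was below every non-LRC sample (5.2% of all genes). With the replicate number as a block, 6 genes were lower (10% of all genes were lower, near the share of these 6 among the 56): SDHC at -0.27 (adjusted p 0.008), CYC1 at -0.22 (adjusted p 0.0112), NDUFA3, SDHA, UQCRC1 and NDUFB10. SDHC had 129, 125, 135 and 129 CPM in HCT15 non-LRCs and 99.3, 119.8, 101 and 108 CPM in LRCs, without overlap.

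Whether the LRC difference itself varied between lines was tested with an interaction of population and line. It did for 8 of the 56 genes, where 14.3% of all genes were called, and with the replicate block for 21, where 33.6% of all genes were called. Both counts are near the share of all genes. The smallest adjusted p belonged to NDUFB10 (0.00632), COX8A (0.0102) and NDUFC1 (0.0159). In all 8 the RKO estimate was the lowest: NDUFB10 had -0.63 in RKO and -0.19 to 0.06 in the other lines, COX8A -0.61 and -0.25 to 0.15, and NDUFC1 -0.57 and -0.06 to 0.02. The count was 1 without replicate 1 of every group, 18 without replicate 2, 2 without replicate 3 and 0 without replicate 4, and 13 by DESeq2.

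The unsorted DLD1 controls show how these genes vary with time in culture and with the dye when no cells are selected. In CFSE-labelled cells, 41 of the 56 genes were higher on day 6 than on day 1 and 0 were lower, where 39.3% of all genes were called, 20.2% as higher, and 23.9% were called higher among genes at least at the mean level of the lowest of the 56. They were 23 of 34 genes of complex I, 2 of 4 of complex II, 6 of 8 of complex III and 10 of 10 of complex IV. The median log2 fold change was 0.45 for the 56 genes and 0.02 for all genes.

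In complex I, NDUFB2 had 38.7, 43.2, 47.7 and 49.8 CPM on day 1 and 88.3, 90.6, 63.6 and 71.1 CPM on day 6 (log2 fold change 0.77, SE 0.117, adjusted p 0.000271). NDUFB1, the gene that was not called between lines, had 20.4, 22.2, 24.8 and 29.7 CPM on day 1 and 42.6, 45.9, 41.4 and 45.0 CPM on day 6 (0.81, SE 0.13, adjusted p 0.000352). Neither gene's groups overlapped. The complex I subunit with the highest estimate was NDUFB5, with 29.0, 26.5, 35.8 and 41.6 CPM on day 1 and 65.6, 71.9, 53.9 and 64.7 CPM on day 6 (0.91, adjusted p 0.0014), also without overlap; in RKO it was not called (0.04). The core subunits of complex I had a median of 0.13, with 2 of 6 higher, against 0.45 and 21 of 28 for the accessory subunits.

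In complex II, SDHC had 58.4, 66.3, 87.5 and 81.7 CPM on day 1 and 150.3, 163, 128 and 149 CPM on day 6, the highest log2 fold change of the 56 genes at 0.97 (SE 0.148, adjusted p 0.00027). SDHA rose from 81.4, 98.9, 112 and 113 CPM to 142, 145, 135 and 134 CPM (0.42, SE 0.104, adjusted p 0.00523). SDHB (-0.02, adjusted p 0.893) and SDHD (0.09, adjusted p 0.806) were not called.

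In complex III, UQCRQ rose from 59.1, 68.3, 73.8 and 73.6 CPM to 153, 147, 105 and 121 CPM (0.90, SE 0.133, adjusted p 0.000231). All 4 small subunits of complex III and both core proteins were higher, UQCRC2 by 0.64 (SE 0.121, adjusted p 0.000982), while CYC1 (0.25, adjusted p 0.171) and UQCRFS1, which carry its c1 haem and Rieske cluster, were not called.

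In complex IV, COX8A rose from 51.4, 63.5, 66.0 and 60.02 CPM to 115, 114, 86.9 and 94.6 CPM (0.73, SE 0.121, adjusted p 0.000443), and COX7C from 118, 129, 128 and 132 CPM to 209, 223, 176 and 197 CPM (0.63, SE 0.137, adjusted p 0.0025). No day 6 sample overlapped a day 1 sample in either gene. In NDUFB2, UQCRQ, COX8A and COX7C the day 6 samples 1 and 2 were above samples 3 and 4, and the count fell to 13 without replicate 1 and 12 without replicate 2 of every control group. The share of reads on no feature was 13.4 ± 1.31% on day 1 and 6.18 ± 0.975% on day 6, and its part in the result was not tested.

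In unlabelled DLD1, 11 of the 56 genes were higher on day 6 (5 of complex I, 1 of II, 2 of III and 3 of IV) and 0 were lower, where 25.5% of all genes were called, 12.4% as higher. The median log2 fold change was 0.21, against 0.04 for all genes. An unadjusted p under 0.05 was found for 24 of the 56 and for 5923 of all 14518 genes, a similar share. COX7C had 148, 153, 136 and 171 CPM on day 1 and 287, 255, 184 and 177 CPM on day 6 (log2 fold change 0.56, SE 0.137, adjusted p 0.0118). UQCRB had 126, 123, 124 and 133 CPM and then 246, 185, 146 and 144 CPM (0.50, SE 0.134, adjusted p 0.0164). In both genes the groups did not overlap, but samples 3 and 4 of day 6 lay near the day 1 range.

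SDHC had 91.4, 96.3, 104 and 130.2 CPM on day 1 and 181, 167, 136 and 127 CPM on day 6, with overlap (0.53, SE 0.146, adjusted p 0.0192). NDUFA2 (0.46, SE 0.114, adjusted p 0.0125), NDUFA8 (0.37, SE 0.106, adjusted p 0.0216), UQCRC2 (0.43, SE 0.121, adjusted p 0.0202) and COX6C (0.43, SE 0.117, adjusted p 0.0181) were also higher. This comparison depended on single replicates: 0 of the 56 genes were called without replicate 1, 2 or 3 of every control group, where 0 of all genes were, and 16 without replicate 4. With library sizes taken as they were, without TMM, 4 were higher and 2 lower.

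Dye itself was compared on each day, with samples that the time comparisons also use. On day 1, 9 of the 56 genes were lower with CFSE and 0 were higher (21.8% of all genes were called, 12% as lower), with a median log2 fold change of -0.18 against -0.01 for all genes. NDUFB1 had 34.4, 34.9, 36.3 and 35.0 CPM without dye, above each of the 4 labelled samples given above (-0.51, SE 0.13, adjusted p 0.0122). SDHC (-0.50, SE 0.147, adjusted p 0.0238), COX8A (-0.42, SE 0.121, adjusted p 0.0224) and NDUFB2 (-0.40, SE 0.117, adjusted p 0.0234) did not overlap either, nor did UQCRQ (-0.38, SE 0.133, adjusted p 0.0483) and UQCRC2 (-0.36, SE 0.121, adjusted p 0.0412). The count was 0 without replicate 1 of every control group, 0 without replicate 2 and 3 without replicate 3. On day 6, 0 of the 56 were called by edgeR (3 at an unadjusted p under 0.05, 0 by DESeq2), where 5.13% of all genes were. Of all 14518 genes, 3537 had an unadjusted p under 0.05, a larger share than the 3 of 56.

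The test of whether the time effect differed between labelled and unlabelled cells called 0 of the 56 genes by edgeR (11 at an unadjusted p under 0.05, 2 by DESeq2), where 0.999% of all genes were called. Of all 14518 genes, 2474 had an unadjusted p under 0.05, a share near the 11 of 56. The median difference was 0.24 on the log2 scale. The 41 calls in labelled and 11 in unlabelled cells were therefore not shown to differ gene by gene.

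**Figure D4:**
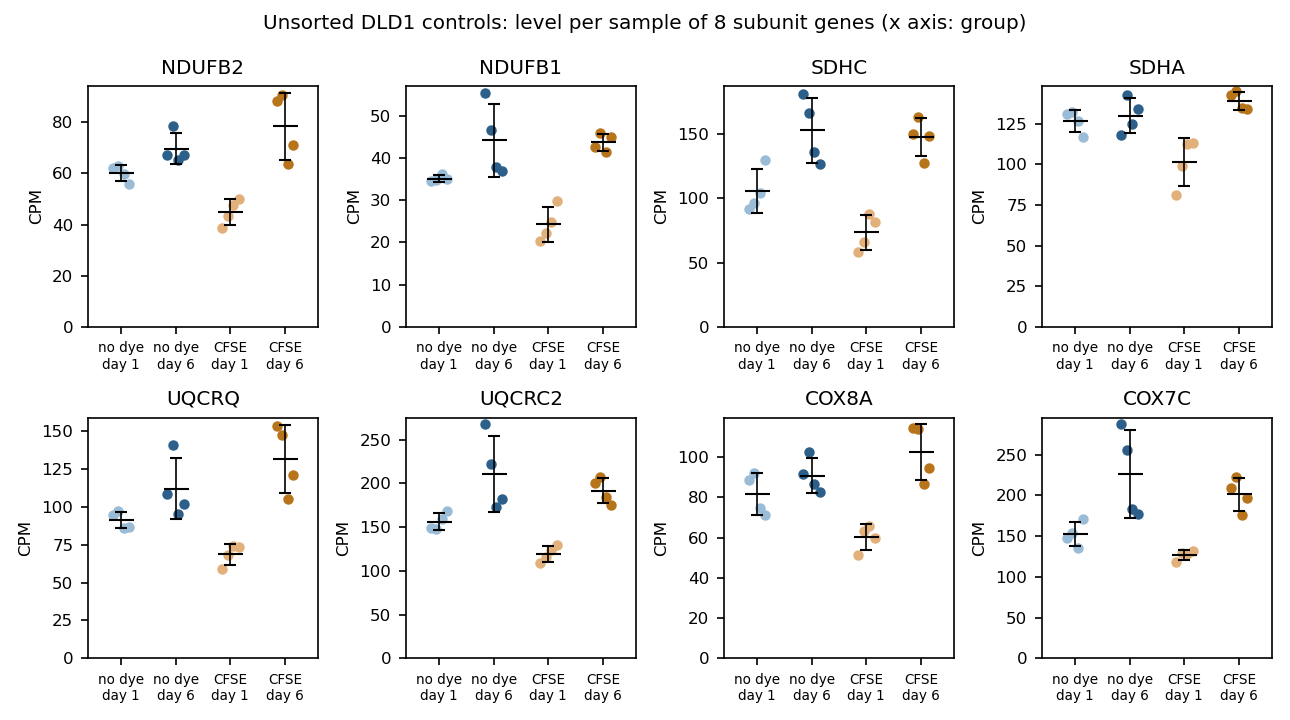
Level (CPM, vertical axis from 0) of 8 subunit genes in the 4 groups of unsorted DLD1 controls, 4 samples each, with the mean and its SD. In labelled cells each gene was higher on day 6 than on day 1 without overlap. In unlabelled cells the days overlapped in some genes, such as SDHC.

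The RKO sort and the labelled controls share no samples. Of the 43 genes lower in RKO LRCs, 32 (74.4%) were higher on day 6 in labelled DLD1, which is 78% of the 41. Since 41 of all 56 genes were higher on day 6 and 43 of all 56 lower in RKO LRCs, these shares are near those of the 56 genes as a whole. NDUFA10, NDUFS8, NDUFV1 and NDUFV3 were called in neither comparison.

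Other genes of the pathway were followed in lists. Of all genes, 10.7% were lower across the lines, 21% were lower in RKO and 20.2% were higher on day 6 in labelled DLD1. The nuclear-encoded genes listed for ATP synthase, which uses the proton gradient the chain builds, included ATP5IF1 and DMAC2L besides its subunits. They were lower in LRCs in 10 of 19 across the lines (ATP5F1A at -0.20, ATP5MC3 at -0.24) and in 15 of 19 in RKO, with a median of -0.33. In labelled DLD1 17 of 19 were higher on day 6, with a median of 0.54.

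The lists below are set beside the shares of all genes called lower, 10.7% across the lines and 21% in RKO. Complex I assembly factors were lower in 9 of 18 across the lines, including ACAD9 and NDUFAF3 (both -0.23), and in 8 of 18 in RKO. Those of complexes II to IV were lower in 10 of 32 across the lines, including BCS1L, the inserter of the Rieske protein, at -0.22, and UQCC2 at -0.24. In RKO 13 of 32 were lower and 2 higher. TCA cycle enzymes were lower in 7 of 13 across the lines (FH -0.27, SUCLG2 -0.25) and in 8 of 13 in RKO. Import and cristae genes were lower in 11 of 17 across the lines (TOMM40 -0.24, IMMT -0.14) and in 13 of 17 in RKO. Of the regulators of mitochondrial biogenesis, 1 of 13 was lower across the lines and 3 of 12 were lower in RKO, both near the shares of all genes. The regulator lower across the lines was TFAM, which packages mitochondrial DNA and acts in its transcription, at -0.19.

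The 13 protein-coding genes of mitochondrial DNA went the other way across the lines and in RKO, but not in every line. By the interaction in edgeR's quasi-likelihood fit, the LRC difference varied between lines for MT-ND5 (adjusted p 0.00292) and MT-CO1 (0.00912). It was not called for MT-CO2 (0.174). Of all genes, 22.9% were called in either direction across the lines, 41.5% in RKO and 0.796% in SW48. Across the lines 8 of 13 were higher in LRCs and 0 lower, with a median of 0.24 (MT-ND2 0.35, MT-ND5 0.40), and in RKO 12 of 13 were higher, with a median of 0.77. The ratio of their summed CPM to that of the 56 nuclear genes was 11.0, 10.6, 11.1 and 7.99 in RKO non-LRCs and 23.1, 21.7, 15.3 and 20.7 in LRCs. In SW48 it was 23.8, 22.1, 25.3 and 21.2 in non-LRCs and 35.5, 33.7, 33.5 and 31.0 in LRCs, and 3 of 13 mitochondrial genes were higher there. The populations did not overlap in either line. In HT55, SW948, DLD1 and HCT15 the ratios overlapped, with means of 19.7 and 21.4, 8.25 and 8.33, 14.4 and 14.7, and 12.6 and 14.7 in non-LRCs and LRCs. The mean share of counted reads on the 13 genes was lower in LRCs in SW948 (5.07 and 4.72%) and DLD1 (5.96 and 5.89%). It was higher in HT55 (8.18 and 8.65%), HCT15 (5.72 and 6.49%), RKO (5.11 and 8.42%) and SW48 (9.89 and 13.0%).

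Isoforms that replace some subunits in muscle, lung or testis, or in hypoxia, were low. COX6B2 and NDUFA4L2 had line means of at most 1.16 CPM. COX4I2, COX6A2, COX7A1, COX7B2 and COX8C reached too few counts to be tested (11, 1, 8, 1 and 33 counts over all 64 samples). UQCRHL, a near-identical copy of UQCRH, had line means of at most 1.47 CPM, without reads that align to both genes. COX7A2L, a factor of supercomplex assembly, was expressed at 56 to 182 CPM.

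Proliferation markers changed in several of these comparisons, and not always in the direction of the 56 genes. Their summed level was 1699 to 1844 CPM in RKO non-LRCs and 855 to 1430 CPM in LRCs, and 8 of 10 were lower in LRCs in both RKO (median -0.63) and DLD1 (median -0.55), where the 56 genes had medians of -0.38 and -0.07. In labelled DLD1 6 of 10 were higher on day 6 (median 0.44), and in unlabelled DLD1 4 were lower on day 6 (median -0.44), while the 56 genes had positive medians in both. With dye on day 6, 9 of 10 were higher (median 0.76), and 0 of the 56 were called. Of all genes, 21% were lower in RKO LRCs, 7.89% lower in DLD1 LRCs and 20.2% higher on day 6 in labelled DLD1. In unlabelled DLD1 25.5% of all genes were called in either direction, and 5.13% with dye on day 6. Of the other cell type markers, 0 of 5 tested were called across the lines, and in RKO they summed to at most 2.1 CPM. The part of proliferation in the differences of the subunit genes was not tested.

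**Figure D5:**
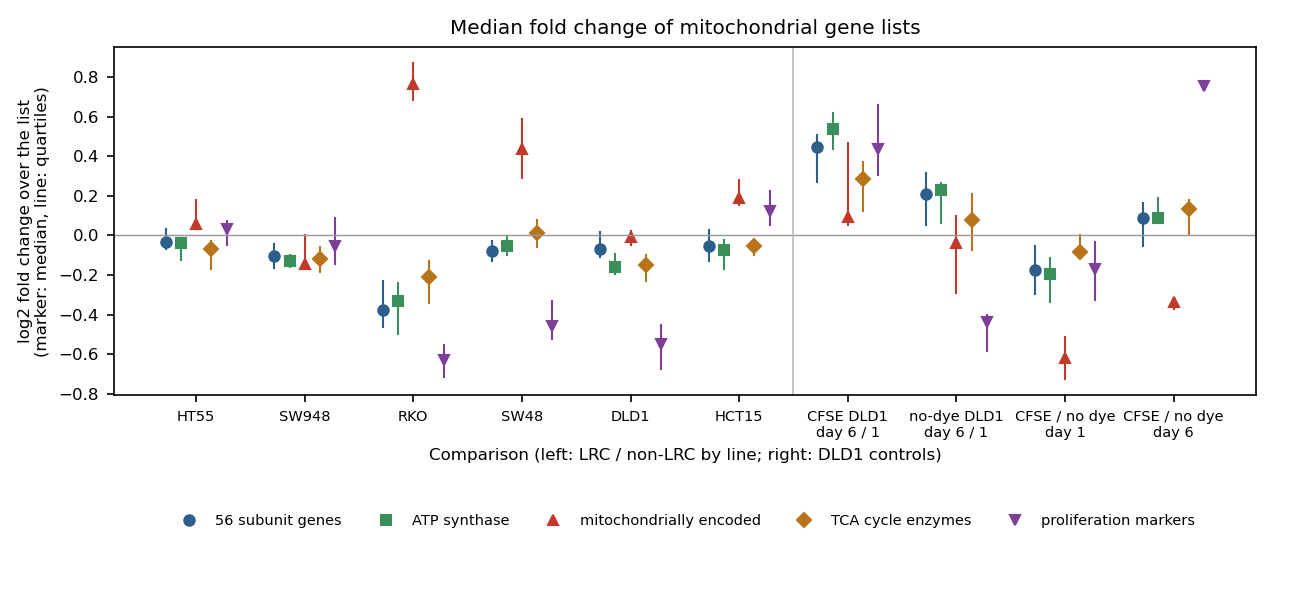
Median log2 fold change (marker) with quartiles (line) of 5 gene lists in the 6 LRC comparisons (left) and the 4 comparisons of DLD1 controls (right). In RKO the 56 subunit genes (-0.38) and ATP synthase (-0.33) lie below 0 and the mitochondrially encoded genes (0.77) above it.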

How the data were processed

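RNA was extracted (RNAeasy Micro), prepared with TruSeq and sequenced as single-end reads. The deposited files hold raw read counts per Ensembl gene for each of the 64 samples; the authors made them, and the submitters' processing notes name TopHat, HTSeq, DESeq and hg19. Tool versions, annotation and strand setting are not given in the sources used here. Reads counted on no feature (5.19 to 14.8% per sample) and the other rows that name no gene were left out of library sizes and tests.

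A gene entered a fit if 4 or more of its samples held 10 or more counts. Tests were made in edgeR 4.0.16 (R 4.3.3) with TMM normalisation and the two-sided quasi-likelihood test, and p-values were adjusted by Benjamini-Hochberg over all genes of the fit. The across-lines and between-lines fits used all 48 sorted samples, each line fit its 8 samples, and the control fits all 16 controls. Fold changes are on the log2 scale with SE; CPM are TMM-normalised over all 64 samples. DESeq2 1.42.0 and other settings were alternatives, and the script was tested on simulated data. Pairs of samples with the same replicate number deviated together (every correlation of deviations above 0.1) in HT55, SW48, DLD1, HCT15 and the labelled controls (mean 0.348, 0.375, 0.352, 0.478 and 0.224), which was checked in the data and not stated in the labels; in SW948, RKO and the unlabelled controls they did not. No 2 samples held identical values.

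The 56 genes and the other lists were chosen with earlier results of these data known. Genes named with values were the 2 of each complex with the smallest p in a comparison, those opposite in direction to most calls, the 3 with the smallest p between lines, and the extremes of level and of range over lines; NDUFB5, NDUFB7, NDUFV1, NDUFC2, SDHB, SDHD, UQCRB, SDHA, CYC1 and COX7C in further lines and comparisons were named after their values were seen. Promoter sequences are from RefSeq (GRCh38.p14). Overlaps of gene models were taken from a GRCh37 annotation.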

Additional observations from a re-analysis of the deposited data

Results flagged for a closer look

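Among 72 sets of 4 values, each 1 measure in 1 group, tested for a sample far from the others, 3 stood out. About 1 in 20 would by chance. The sets reuse the same samples, so they are not independent. The share of counted reads on the 56 genes was 0.497% in HCT15 non-LRC replicate 3, against 0.439 to 0.449% in the others. NDUFC1 had 37.2 CPM in RKO LRC replicate 1, against 43.3 to 43.98 CPM in the others, and NDUFA8 had 54.3 CPM in the unlabelled day 6 control replicate 3, against 62.7 to 63.7 CPM.

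The LRC difference varied between the 6 lines for 8 of the 56 genes by the interaction in edgeR's quasi-likelihood fit, where 14.3% of all genes were called, which is near the share of these 8 among the 56. The count was 0 without replicate 4 of every group. The adjusted p was 0.00632 for NDUFB10, 0.0102 for COX8A, 0.0159 for NDUFC1, 0.0162 for SDHB, 0.0249 for NDUFB2, 0.0379 for UQCRFS1, 0.0397 for COX6A1 and 0.04998 for NDUFA8. RKO had the lowest of the 6 estimates in each.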

How the results depend on the processing

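Of 147 alternative counts of called genes, 111 were within 1.5 times the reported count and 36 were not, and none of the named genes reversed. The values of named genes that no longer passed the threshold were 2 of 60 across the lines, 1 of 80 in RKO, 15 of 30 in DLD1, 25 of 72 between lines, 4 of 72 and 25 of 63 for time in labelled and unlabelled cells, and 21 of 54 for dye on day 1. In RKO the count ran from 31 to 45 over all alternatives. Across the lines it was 0 with a log2 fold change of at least 0.25, 8 without RKO (added after seeing the data), and 11 to 20 when 1 replicate was left out. In SW948 it was 1 without a filter on low counts and 0 to 1 on leaving out a replicate. In DLD1 it was 1 with the fold change of at least 0.25, 0 with all 48 sorted samples in 1 fit, 11 with the replicate block, and 0 to 1 without a replicate. In HCT15 it was 1 with DESeq2, 1 in the fit of 48 samples and 6 with the replicate block. Between lines it was 13 with DESeq2, 21 with the block and 0 to 18 without a replicate. For time in culture it was 12 to 40 in labelled cells without a replicate, and in unlabelled cells 6 without TMM, 7 without the filter and 0 to 16 without a replicate. Without TMM the median of all genes moved from 0.02 to -0.09 in labelled and from 0.04 to -0.09 in unlabelled cells, and that of the 56 genes from 0.45 to 0.33 and from 0.21 to 0.08. For dye on day 1 it was 14 with DESeq2 and 0 to 10 without a replicate. On day 6 it was 1 with the replicate block. For the time effect differing with dye it was 2 with DESeq2 and 0 to 3 without a replicate. The cause of these shifts was not tested, beyond fewer samples in the fits without a replicate. In the other paired comparisons the count with the block was as without it: 0 in HT55 and SW48 and 41 for time in labelled cells. In SW948, RKO and the unlabelled controls, samples shared only a number, with mean correlations of deviations of 0.0922, -0.0482 and -0.0848, and the block gave 41 genes in RKO and 12 in unlabelled cells. The median of the 56 genes was above 0 without replicate 2 in HT55 (0.00385) and SW48 (0.00394). Isoforms below 2 CPM lay close to the count filter, where depth limits what a test can show.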
